A study of Mus musculus with 25 samples.

Results

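The genes described here encode intermediate filament proteins, lamins and a linker of filaments, and are Des, Vim, Nes, Synm, Sync, Lmna, Lmnb1 and Plec. They are 8 of the 21000 protein-coding genes, and of 26182 genes in all, that have a curated RefSeq transcript on the nuclear chromosomes of mm10 (GRCm38). They were chosen by name, not by a measured value, though with earlier results of these data known. For each gene, all Spin1 and H3K4me3 peaks within 1 kb of a curated transcription start site (TSS), in the rest of the gene and in the 50 kb on either side were collected. TSSs within 500 bp of each other were counted as 1 promoter, so that the 19 curated TSSs of the genes gave 17 separate promoters. Of the 8 genes, 6 had 1 promoter, Lmna had 2 and Plec had 9.

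The study asked what the histone code reader Spin1 does in skeletal muscle. To find where Spin1 and H3K4me3 lie in the genome, chromatin was immunoprecipitated from primary myoblasts, the proliferating precursors of muscle fibers, obtained by preplating from the limb muscle of C57BL/6 mice (C57BL/6 N in the methods) at 10 days of age. There was 1 library for Spin1, 1 for H3K4me3 and 1 for input, and no library came from a genetically changed mouse. The H3K4me3 library carries this name in its title, whereas its antibody field reads H3K4me. The 22 RNA-seq samples of the series and the input were not analysed here, so that a peak below says nothing of how much RNA a gene gave.

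Intermediate filaments are rope-like polymers that give cells mechanical strength. Desmin is the main such protein of muscle, where it links neighbouring myofibrils at their Z-discs, and vimentin and nestin are found in mesenchymal and in precursor cells. Synemin and syncoilin join desmin networks, plectin ties filaments to membranes and organelles, and lamins line the inner face of the nuclear envelope. Mutations in DES, LMNA and PLEC are known causes of human muscle disease. Spin1 binds trimethylated lysine 4 of histone H3, a mark that is typical of active promoters.

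Spin1 and H3K4me3 both occupied a promoter of all 8 genes. For comparison, 56.7% of the protein-coding genes had a Spin1 peak at a promoter, 68% an H3K4me3 peak and 56.7% both. With 1 library per antibody no test of these counts was possible. Counted by separate promoter, 16 of 17 had a Spin1 peak within 1 kb, against 53.8% of all promoters, and 17 of 17 an H3K4me3 peak, against 66.1%. Of the 19 TSSs, 15 lay inside a Spin1 peak and 19 inside an H3K4me3 peak, but 11 of the 19 are of Plec alone. With 1 TSS for each of the 21000 protein-coding genes, 11296 lay inside a Spin1 peak and 13798 inside an H3K4me3 peak. The counts of genes depend on overlap being enough. When the center of a peak had to lie within 1 kb of a TSS, 3 genes had a Spin1 peak (Synm, Lmnb1 and Plec), 3 an H3K4me3 peak (Synm, Sync and Plec) and 2 both. The share of all genes with a Spin1 peak was then 52.7% and with H3K4me3 56.3%.

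All 9 H3K4me3 peaks at these promoters had a score of 3100, at which the scores of the list pile up, so that they cannot be ranked. The score is the -log10 of the MACS p-value, with input as control, multiplied by 10, and is not scaled to depth. Of the 17106 Spin1 peaks in the list, 30.9% had a score of 3100 or more, as had 45.2% of the 30763 H3K4me3 peaks. The strongest Spin1 peak at a promoter had a score of 3100 or more at 7 of the 8 genes. This is common, since only 51.1% of the genes with a Spin1 peak at a promoter had a strongest score below 3100, and for H3K4me3 10.3%. The exception was Synm, with a Spin1 score of 326, above 31.9% of the peaks in the list. When only the 50% of peaks with the highest score were kept, Synm was the 1 gene without a Spin1 peak.

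The desmin gene Des lies on chromosome 1 from 75360292 to 75368579, plus strand. Its Spin1 peak, 75359904 to 75362683, was 2780 bp wide, began 388 bp upstream of the TSS and ended in exon 4. The H3K4me3 peak, 75359252 to 75365162, was 5911 bp wide and ended in intron 6. Thus Spin1 covered 47% of the H3K4me3 peak, below the median of 66.2% over the 11903 genes with both.

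At the vimentin gene Vim, chromosome 2 from 13574311 to 13582826 on the plus strand, both peaks were among the wide ones. The H3K4me3 peak, 13571852 to 13583071, was 11220 bp wide and covered the whole gene, from 2459 bp upstream of the TSS to beyond the last base. Spin1 covered 6939 bp, 13572118 to 13579056, and ended in intron 4. A smaller Spin1 peak with a score of 154, 13579596 to 13580335, ran from intron 5 to intron 6. Both Spin1 peaks lay inside the 1 H3K4me3 peak and covered 68.4% of it.

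Nes, on the plus strand of chromosome 3 from 87971093 to 87980451, encodes nestin. Here both peaks began at nearly the same base. The Spin1 peak, 87969983 to 87974733, was 4751 bp wide and ended in intron 2, and the H3K4me3 peak, 87969946 to 87975394, was 5449 bp wide and ended in intron 3. Spin1 covered 87.2% of the H3K4me3 peak, the highest value of the 8 genes. Intron 2 of Nes, which is known for an enhancer that acts in neural precursors, lies 2.023 to 3.709 kb downstream of the TSS. The Spin1 peak reached 3.64 kb and so lay over most of it, and the H3K4me3 peak reached 4.3 kb and spanned it. Whether these peaks relate to the enhancer was not tested. A weak H3K4me3 peak in exon 4, with a score of 62.4, had no Spin1.

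Synm, which encodes synemin, is on the minus strand of chromosome 7 from 67730161 to 67759742. By the widest peak at a promoter, it was the narrowest of the 8 genes for both. Spin1 covered 1006 bp, 67759050 to 67760055, and stayed within exon 1 downstream of the TSS, and H3K4me3 covered 2399 bp, 67757982 to 67760380. Spin1 took up 41.9% of the H3K4me3 peak, the lowest share of the 8. The 3 curated transcripts, for the isoforms H, M and L, share the 1 TSS, so that the peaks do not tell them apart.

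The syncoilin gene Sync, chromosome 4 from 129287621 to 129308559 on the plus strand, had 2 Spin1 peaks at its promoter. The weaker, 129286088 to 129287058 with a score of 199, ended upstream of the TSS, at -563 bp. The stronger, 129287225 to 129290043 with a score of 3165, held the TSS and ended in intron 1. It ran past the end of the H3K4me3 peak, 129285510 to 129289940, with which it shared 96.3% of its bases. The other 12 of the 13 Spin1 peaks at promoters of the 8 genes lay wholly inside an H3K4me3 peak. This share is not given for all promoter peaks, but of 11911 protein-coding genes with a Spin1 peak at a promoter, 11903 had both. Further into Sync, a Spin1 peak with a score of 273 began in exon 2 and ended in intron 2, 5.64 to 6.78 kb downstream of the TSS. It lay inside a separate H3K4me3 peak of 2946 bp with a score of 895.

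The 250 bases before the TSS are printed for the promoters where RefSeq sequence was given (GRCm38.p6), 7 promoters of 6 genes, because they share both peaks and yet differ in composition and in motifs. Each runs 5′ to 3′ along the gene and ends at the base before the TSS. Capitals mark the motifs searched on both strands, which were CANNTG (the E-box bound by myogenic bHLH factors), CAGCTG (a form of it), GGGCGG (a GC box), CCAAT and TATAAA.
Des, chr1:75360042-75360291, plus strand: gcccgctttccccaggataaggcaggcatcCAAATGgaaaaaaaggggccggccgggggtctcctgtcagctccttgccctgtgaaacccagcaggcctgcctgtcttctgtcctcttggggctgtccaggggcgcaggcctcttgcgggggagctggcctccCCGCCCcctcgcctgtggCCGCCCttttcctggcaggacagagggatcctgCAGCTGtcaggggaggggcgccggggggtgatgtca
Vim, chr2:13574061-13574310, plus strand: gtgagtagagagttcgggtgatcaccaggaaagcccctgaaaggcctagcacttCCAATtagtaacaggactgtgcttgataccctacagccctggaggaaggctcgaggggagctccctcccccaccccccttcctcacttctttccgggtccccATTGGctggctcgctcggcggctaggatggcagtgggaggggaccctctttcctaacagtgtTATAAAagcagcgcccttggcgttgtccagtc
Nes, chr3:87970843-87971092, plus strand: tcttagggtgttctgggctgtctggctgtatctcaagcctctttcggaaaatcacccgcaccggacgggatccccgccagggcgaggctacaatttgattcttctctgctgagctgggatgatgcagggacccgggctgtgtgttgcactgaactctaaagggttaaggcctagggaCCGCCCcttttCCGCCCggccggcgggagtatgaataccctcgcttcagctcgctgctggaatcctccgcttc
Synm, chr7:67759743-67759992, minus strand: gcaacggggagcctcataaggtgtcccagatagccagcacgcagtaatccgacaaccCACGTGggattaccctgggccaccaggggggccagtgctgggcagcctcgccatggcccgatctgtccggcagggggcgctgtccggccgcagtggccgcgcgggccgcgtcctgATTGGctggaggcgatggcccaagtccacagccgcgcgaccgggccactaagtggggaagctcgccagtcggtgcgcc
Sync, chr4:129287371-129287620, plus strand: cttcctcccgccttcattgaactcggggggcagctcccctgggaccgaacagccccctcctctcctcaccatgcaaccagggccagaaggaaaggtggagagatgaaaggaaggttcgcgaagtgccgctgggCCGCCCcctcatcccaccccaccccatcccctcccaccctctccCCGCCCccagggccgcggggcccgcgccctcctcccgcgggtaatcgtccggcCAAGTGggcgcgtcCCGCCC
Lmna, lamin A/C start, chr3:88503353-88503602, minus strand: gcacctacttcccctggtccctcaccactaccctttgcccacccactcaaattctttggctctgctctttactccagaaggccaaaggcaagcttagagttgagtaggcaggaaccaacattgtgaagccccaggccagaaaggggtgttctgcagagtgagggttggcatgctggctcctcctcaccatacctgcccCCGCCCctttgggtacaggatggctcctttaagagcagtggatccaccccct
Lmna, lamin C2 start, chr3:88493313-88493562, minus strand: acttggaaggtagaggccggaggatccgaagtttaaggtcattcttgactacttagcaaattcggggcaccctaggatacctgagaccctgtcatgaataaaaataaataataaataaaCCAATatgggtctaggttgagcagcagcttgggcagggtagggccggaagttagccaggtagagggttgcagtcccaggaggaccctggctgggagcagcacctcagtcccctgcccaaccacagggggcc

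The number of CpG dinucleotides in these 250 bases differed widely between the genes. It was 23 at Synm, 19 at Sync, 15 at Nes, 10 at Des, 8 at Vim, 4 at the lamin C2 start and 1 at the lamin A/C start of Lmna. The median over 11381 promoters with both peaks was 17, over 2321 with H3K4me3 only 9, over 6753 with neither 2, and over all 20463 promoters 10. So the lamin A/C promoter, with 1 CpG in these 250 bases, carried both peaks, while 6.21% of all promoters had fewer. Among the 11381 promoters with both peaks, 30 had 0 CpG and 78 had 1. Bases downstream of the TSS were not counted. By the widest peak at a promoter, Synm, with most CpG of the 7, was the narrowest of the 8 genes. The Lmna promoters, with fewest, lay in peaks that were among the widest. Between these extremes the order was mixed. Nes, with 15 CpG, had a wider Spin1 peak than Des, with 10, but a narrower H3K4me3 peak. CpG was not counted at Plec and Lmnb1, and a relation of width to CpG was not tested.

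The motifs differed from promoter to promoter. Des held CAAATG from -220 to -215 and CAGCTG from -36 to -31 relative to the TSS, and Synm held CACGTG and Sync CAAGTG, all of which match CANNTG. This motif is in 62.6% of all promoters, and CAGCTG in 12.3%. TATAAA was found at Vim alone of the 7, from -32 to -27, and is in 11.5% of all promoters. GC boxes stood at Sync (3), Des (2), Nes (2) and the lamin A/C start (1), and are in 43.9% of all promoters. CCAAT, present in 35.5% of all promoters, was found at Vim, Synm and the lamin C2 start. The CArG box (1.38% of all promoters) and the MEF2 site (2.48%) had no match in the 7. Among the 11381 promoters with both peaks, as all 7 had, CANNTG was in 54.8%, CAGCTG in 11.3% and GC boxes in 63.1%. In the same class CCAAT was in 35.9%, TATAAA in 5.46%, the CArG box in 1.21% and the MEF2 site in 1.3%. These are matches of letters and not shown binding sites.

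**Figure D1:**
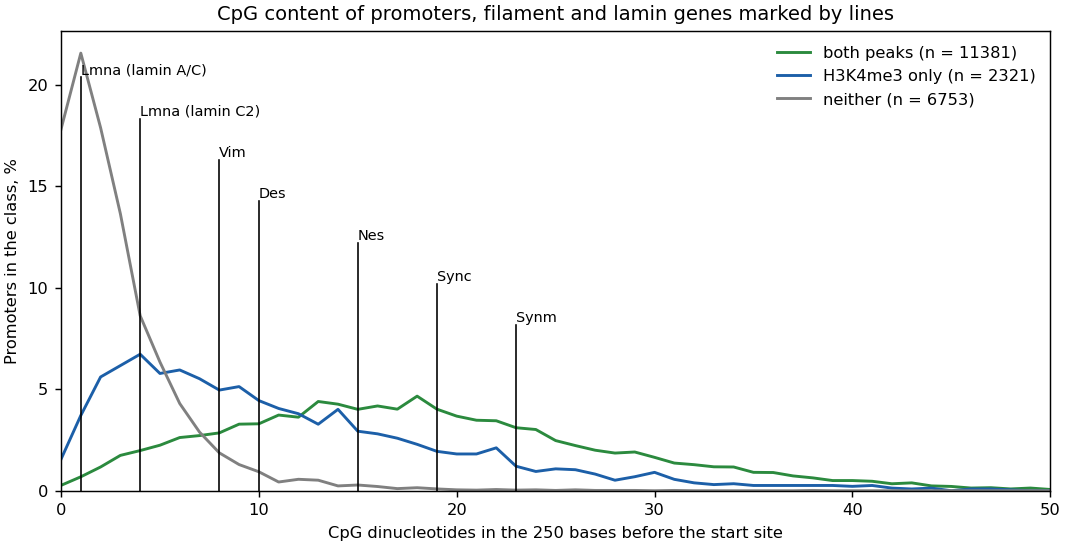
Share of promoters (%) by the number of CpG dinucleotides in the 250 bases before the TSS, for promoters with both peaks, H3K4me3 only or neither. Vertical lines mark the 7 promoters, and their heights carry no value. The lines run from 1 CpG at the lamin A/C start of Lmna to 23 at Synm.

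Lmna, which encodes lamins A and C, lies on the minus strand of chromosome 3 from 88481148 to 88503352. Both of its promoters were occupied. The first, at 88503352, gives lamins A and C. The other, at 88493312, is 10040 bp further along the gene in what is intron 1 of the longer transcripts and gives lamin C2, an isoform known from male germ cells. A single H3K4me3 peak of 17527 bp, 88487566 to 88505092, spanned both TSSs and reached intron 2. In contrast, Spin1 was split into 3 peaks inside it. The peak at the lamin A/C start, 88498244 to 88504875, was 6632 bp wide with a score of 3100. The peak over the lamin C2 start, 88491901 to 88496797, was 4897 bp wide with a score of 2597. The last, in intron 1 with a score of 406, was 1344 bp wide. A peak over a TSS does not show that the TSS is used, and marks of the lamin C2 start and of intron 1 of the longer transcripts cannot be told apart here.

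Plec encodes plectin and lies on the minus strand of chromosome 15 from 76170974 to 76231378. Its first exons are alternative, and several give isoforms that are known from different places in the cell. The 15 curated transcripts start at 11 TSSs in 9 promoters, and all 11 lay inside an H3K4me3 peak. The upstream H3K4me3 peak, 76225283 to 76233652, was 8370 bp wide and held the starts of isoforms 1c and 1f. The downstream one, 76187475 to 76209774, was 22300 bp wide and held the other 9 TSSs, which form 7 promoters. No other protein-coding gene had 7 or more promoters in 1 H3K4me3 peak. Only a gene with at least 7 annotated promoters can have this, and the number of such genes is not given here. Of 2448 genes with 2 or more promoters, 31.6% had Spin1 at every one and 49.1% had H3K4me3. Bdnf and Plec alone have 9 or more promoters, and of these only Plec had H3K4me3 at every one.

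Spin1 was less even over the Plec promoters. Its widest peak, 76196694 to 76207508, was 10815 bp wide with a score of 3100 and held 5 TSSs. These are the starts of isoform 1, of isoform 1d, known from Z-discs, of isoform 1b, known from mitochondria, of a form of isoform 1hij, and of isoform 1g. The start of isoform 1a, known from hemidesmosomes of epithelia, lay in the next peak of 2759 bp with a score of 2149. Upstream, the start of isoform 1f, known from the sarcolemma of muscle, lay inside a peak of 3123 bp with a score of 2217. The start of isoform 1c was 95 bp from the edge of a peak with a score of 1021 but in none. The pair of upstream starts of isoform 1hij, counted as 1 promoter, were 745 and 1145 bp from the nearest Spin1 peak. The start of isoform 1e was 1657 bp away and was the 1 promoter of 17 with no Spin1 peak within 1 kb, although H3K4me3 covered it. This depends on the rule, since with TSS±2 kb all 17 promoters had Spin1, with TSSs joined within 1000 bp all 15, and with TSSs joined within 100 bp 17 of 19. In all, 7 of the 11 Plec TSSs lay inside a Spin1 peak. Since windows of neighbouring promoters share peaks, these are not 9 separate observations.

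**Figure D2:**
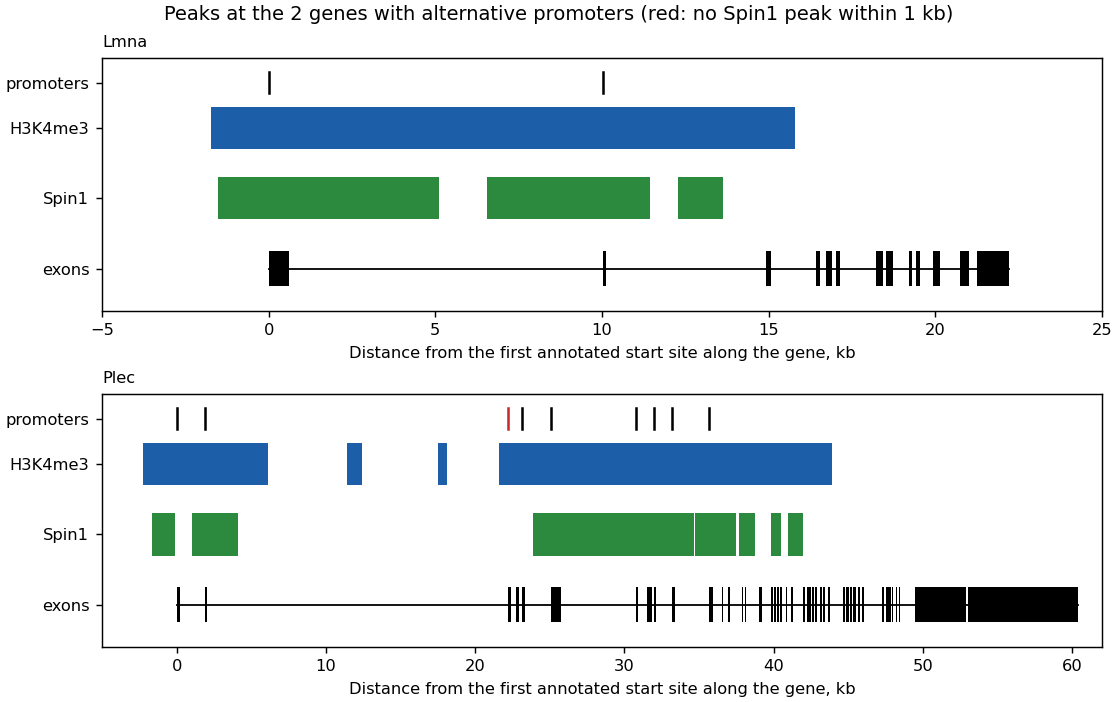
Promoters, H3K4me3 peaks (blue), Spin1 peaks (green) and exons of Lmna and Plec, by distance from the first annotated TSS in kb along the gene. In each gene H3K4me3 forms long unbroken peaks, up to 17527 bp in Lmna and 22300 bp in Plec, that hold several Spin1 peaks. The isoform 1e start of Plec (red) has no Spin1 peak within 1 kb.

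The peaks of most of the 8 genes were wide. The widest H3K4me3 peak at a promoter had a median width of 5680 bp over the 8 genes and of 3250 bp over the 14281 protein-coding genes with such a peak. For Spin1 the medians were 4322.5 bp over the 8 and 2295 bp over 11911 genes. For each mark 7 of the 8 were above the median of all genes, the exception being Synm. A wider H3K4me3 peak was found at 10 genes for Plec, 14 for Lmna, 99 for Vim, 1281 for Des, 1748 for Nes, 1988 for Lmnb1, 3426 for Sync and 10702 for Synm. The genes above Plec were 3 Hoxc genes that share a peak, 3 Hoxa genes that share another, Midn, Cirbp and Atp5d with 1 peak in common, and Smad7. A wider Spin1 peak was found at 3 genes for Plec, 46 for Vim, 67 for Lmna, 441 for Nes, 1123 for Lmnb1, 3599 for Sync, 3741 for Des and 11142 for Synm. H3K4me3 peaks of 10000 bp or more were found at 160 genes, 1.12% of those with a peak, and Plec, Lmna and Vim were 3 of them. All widths are those of 1 library per antibody and have no replicate error.

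**Figure D3:**
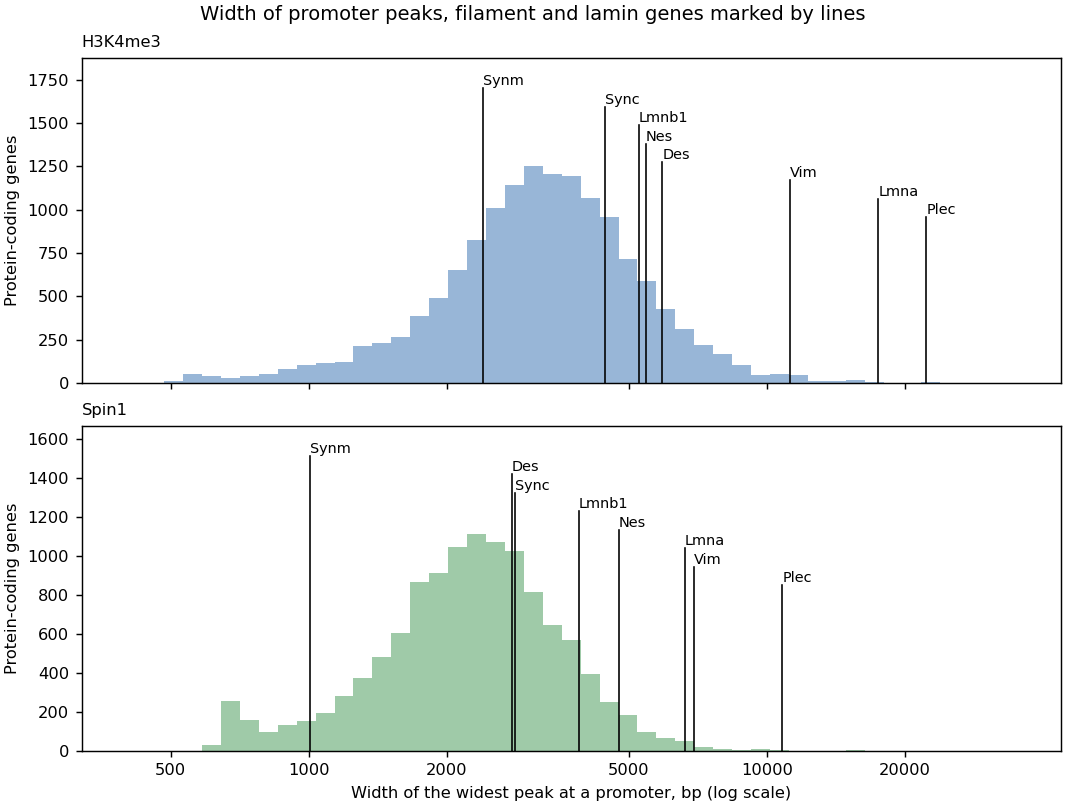
Number of protein-coding genes by the width in bp (log axis) of their widest H3K4me3 or Spin1 peak at a promoter. Vertical lines mark the 8 genes, and their heights carry no value. Plec (22300 bp), Lmna (17527 bp) and Vim (11220 bp) lie at the right edge of the H3K4me3 distribution, and Synm lies left of the middle in both.

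As at most genes, the peaks reached further into the genes than upstream. From the TSS of the RefSeq Select transcript, 1 per gene, Spin1 reached further downstream than upstream at 8 of 8 genes, as it did at 82.3% of all genes whose TSS lay in a peak. The same held for H3K4me3 at 8 of 8 and at 83.8%, though at Sync by little, with 2319 bp downstream and 2111 bp upstream. The distance downstream had a median of 3232.5 bp for Spin1, against 1419 bp over all genes, and of 4585.5 bp for H3K4me3, against 2017 bp. It was shortest at Synm, where Spin1 reached 692 bp, and longest at Plec, where it reached 9627 bp from the start of isoform 1.

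Lmnb1, which encodes lamin B1, is on the plus strand of chromosome 18 from 56707813 to 56753424. Its promoter had a Spin1 peak of 3894 bp with a score of 3100 and an H3K4me3 peak of 5248 bp. Together with a weak Spin1 peak near the end of the H3K4me3 peak, that Spin1 peak covered 87.1% of it. With 5 further H3K4me3 peaks in the gene, 4 in intron 1 and 1 in intron 5, Lmnb1 had the most of the 8 genes, and their scores ran from 56.5 to 477. Spin1 overlapped 1 of them, 15505 to 16187 bp downstream of the TSS, with a score of 103. The weak Spin1 peak near the end of the H3K4me3 peak of the promoter had a score of 77.2.

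Outside promoters, 5 of the 8 genes held a Spin1 peak, against 9.03% of protein-coding genes, and 5 held an H3K4me3 peak, against 21.3%. These shares are not matched for gene length, which ran from 8288 bp for Des to 60405 bp for Plec. The 8 Spin1 peaks were in Plec (3), Lmnb1 (2), Vim, Lmna and Sync (1 each). Their scores were low, with a median of 168 and a maximum of 406. All 8 overlapped H3K4me3, a share not given for all genes. Of the 8, 6 lay inside an H3K4me3 peak that also held a promoter of the gene. Only the peak in Sync and that in Lmnb1 from 15505 to 16187 bp downstream of the TSS marked a separate H3K4me3 site. Of the 10 H3K4me3 peaks, 2 overlapped Spin1. None of these 18 peaks remained among the 50% with the highest score.

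In the 50 kb on either side of the genes lay 22 Spin1 and 50 H3K4me3 peaks. Of these, 14 and 21 were at promoters of other genes. Both peaks overlapped promoters of Dnpep and Speg near Des, Trdmt1 near Vim, Isg20l2 and Rrnad1 near Nes, 4833412C05Rik near Synm, C77080, Rbbp4 and Zbtb8os near Sync, Mex3a, Mir1905, Lamtor2 and Ubqln4 near Lmna, and Grina and Mir6953 near Plec. Gm15179, Mrpl24, Crabp2, Bcan, Mir7011 and Parp10 were overlapped by H3K4me3 peaks only in these flanks. Of these, the H3K4me3 peak at Mrpl24 shared 58.1% of its bases with a Spin1 peak that lay beyond the 50 kb.

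Flanking Spin1 peaks at no promoter were found for 5 of the 8 genes, against 25.4% of protein-coding genes, and flanking H3K4me3 peaks at none for 7 of 8, against 53%. The 8 Spin1 peaks had scores from 85.8 to 564, and 7 of them overlapped H3K4me3, a share not given for all genes. The strongest lay 11.1 to 13.2 kb downstream of the Nes TSS, beyond the end of the gene, with a score of 564, and another with a score of 480 lay from -11.4 to -9.89 kb. Upstream of Lmna, peaks with scores of 414 and 311 lay from -7.32 to -5.75 kb and from -11.2 to -10 kb. Near Vim, a peak from -18 to -16.6 kb had a score of 388. The other peak near Vim, from -28.6 to -28 kb with a score of 127, was the 1 of the 8 without H3K4me3. Des had 1 from -16.6 to -15.9 kb with a score of 104, and Lmnb1 had 1 beyond its end with a score of 85.8. Which gene such a peak acts on, if any, was not measured.

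Related genes were compared by lists. Of 9 other filament and lamin genes, 4 had a Spin1 peak at a promoter (Lmnb2, Bfsp1, Ina and Nefm) and 7 an H3K4me3 peak. Nefh, Nefl and Prph had H3K4me3 only, and Gfap and Bfsp2 had neither. Lmnb2, which encodes lamin B2, had a Spin1 score of 2152, whereas Bfsp1, Ina and Nefm had scores from 182 to 377. Of 53 keratin genes, which serve epithelia, 0 had a Spin1 peak (95% Wilson interval up to 6.76%) and 3 had H3K4me3. Of 6 other plakins, the family of plectin, 1 had a Spin1 peak (Dst, score 3100, 3354 bp wide) and 4 had H3K4me3. The 5 without Spin1 were Macf1, Dsp, Evpl, Ppl and Eppk1. Macf1 has 1 curated TSS in RefSeq, 1973 bp from the nearest Spin1 peak, and 7 Spin1 and 11 H3K4me3 peaks in the gene, so that its place in the list rests on the annotation.

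Partners of the lamina and of desmin were mostly occupied. All 15 lamina partners, such as Emd (emerin), Lbr (the lamin B receptor), Sun1 and Zmpste24 (the protease that processes prelamin A), had both peaks at a promoter. Of 8 desmin partners and genes of myofibrillar myopathy, 6 had both (Bag3, Cryab, Dnajb6, Dtna, Flnc and Ldb3). The exceptions were Fhl1, with H3K4me3 only, and Myot, whose nearest Spin1 peak was 45430 bp away. In this list Bag3, a chaperone partner, had the widest H3K4me3 peak, with 10566 bp. These counts are read against 56.7% of all protein-coding genes for Spin1 and 68% for H3K4me3, and intervals cover counting error only.

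**Figure D4:**
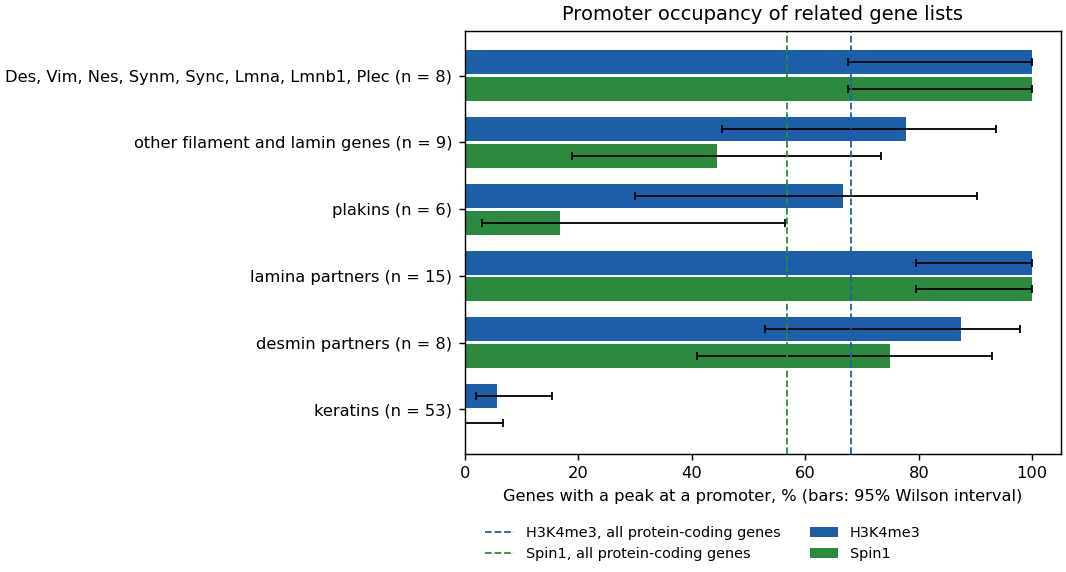
Share of genes (%) with an H3K4me3 (blue) or Spin1 (green) peak at a promoter in each list, with 95% Wilson intervals for counting error. Dashed lines give the share of all protein-coding genes, 68% and 56.7%. The lists were picked by name and not drawn at random, so the intervals are no test against these lines. The lamina partners stand at 15 of 15 and the keratins at 0 of 53 for Spin1.

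Markers of cell types were counted in the same way, against 56.7% of all protein-coding genes for Spin1 and 68% for H3K4me3. With peaks this common, the counts alone do not tell what cells the chromatin came from. All 6 myoblast markers (Myod1, Myf5, Pax7, Cdh15, Itga7 and Myog) had both peaks at a promoter. Of 4 fibroblast markers, Col1a1 and Pdgfra had both, Thy1 had H3K4me3 only and Dpt neither. Spin1 was found at 0 of 3 markers of endothelium and 0 of 3 of blood, and H3K4me3 at 2 and 1 of them. Vim, Lmna and Plec are widely expressed, also in fibroblasts. What part cells other than myoblasts had in the peaks at the 8 genes was not tested.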

How the data were processed

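Spin1 and H3K4me3 ChIP-seq peaks of primary myoblasts were used, 1 library each. Per the labels and methods, the authors aligned reads to mm10 with Bowtie2, called peaks with MACS 1.4.2 against input and dropped those whose false discovery rate exceeded 1%. They deposited positions and a score per peak (-log10 of p, multiplied by 10). The score is not scaled to depth. Read depth is not given in the sources used here, so that weak peaks may be missed, and width and score may rise with depth.

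Peaks on 21 chromosomes were compared, 1-based, with 45756 curated transcripts of RefSeq release 108.20200622 with pandas 2.3.3, NumPy 2.4.6, matplotlib 3.10.9 and SciPy 1.17.1 under Python 3.11.15. The code was tested on simulated peaks. A promoter was TSS±1 kb and an overlap was 1 bp or more. Shares have 95% Wilson intervals.

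The text names all 8 genes, the genes of each list with a Spin1 peak (if at most 10) or without (if at most 5), and neighbours whose promoter holds a flanking peak. The lamina partners given as examples, Midn, Cirbp, Atp5d, Smad7, Bdnf and the genes with H3K4me3 only or neither were named after their values were seen. The 8 genes and the lists were chosen with earlier results of these data known. Alternatives were other windows, scores, overlap rules, joins, flanks and gene sets. RefSeq promoter sequences matched 6 of the 8 genes (not Lmnb1 and Plec). The result of 1 further marker list is not reported here.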

Additional observations from a re-analysis of the deposited data

How the results depend on the processing

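Of 101 values under alternatives, 70 stayed within the range set for their result and 31 moved. Presence of both peaks at a promoter of all 8 genes did not change with windows of TSS±0.5 kb, TSS±2 kb or 1 kb upstream to 0.1 kb downstream, with a score of at least 100 or with 1 TSS per gene. With the peak center in the window, 3 genes had Spin1, 3 H3K4me3 and 2 both, separate promoters fell to 5 and 5, Spin1 peaks in the genes outside promoters rose to 15, and the shares of all genes were 52.7%, 56.3% and 45.2%. With the 50% highest scores, 0 Spin1 and 0 H3K4me3 peaks remained in the genes outside promoters and 7 and 22 in the flanks, and the shares were 42.9%, 63% and 42.9%. A score of at least 100 left 5 H3K4me3 peaks in the genes outside promoters and a share of 67.3% with H3K4me3. Flanks of 20 kb held 10 and 25 peaks, and of 100 kb 45 and 80. Over all genes with a curated transcript the shares with Spin1, H3K4me3 and both were 50.7%, 61.9% and 50.6%. With 1 TSS per gene they were 55.8%, 67.2% and 55.8%, and with 1 kb upstream to 0.1 kb downstream the Spin1 share and that of both were 55.8%. TSS±2 kb gave 68.7% with H3K4me3. No paired analysis was possible because each antibody had a single library, and no replicate could be left out. Without depths, an absent peak is a peak not called.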
